A study of Mus musculus with 2 samples.

Results

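The centrosome is the main microtubule-organising centre of animal cells. It holds a pair of centrioles inside pericentriolar material, and that material carries gamma-tubulin ring complexes, from which microtubules grow. Centrioles are copied once per cell cycle under the kinase Plk4, and the pericentriolar material expands before mitosis. Described here are 47 of the 32285 genes listed for mouse embryonic stem cells after knockdown of Son, a large RNA-binding protein of nuclear speckles that takes part in splicing. The genes were taken by symbol: every Cep gene with a number alone after the prefix (Cep for centrosomal protein), Tubgcp2 to Tubgcp6, and Pcnt, Cdk5rap2, Tubg1, Ninl, Nin, Pcm1, Cntrob, Sass6, Plk4 and Cenpj. The rule used symbols alone, although it was set with earlier results of these data known.

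The study compared E14 embryonic stem cells (129/Ola background) grown in serum with leukaemia inhibitory factor and transfected by Lipofectamine 2000 with a control siRNA or with an siRNA against Son. Cells were collected 24 hours after transfection, frozen, thawed, sorted on 7-AAD as a viability dye and barcoded with the 10x Genomics 3' v3 chemistry. There was 1 library for control and 1 for sonKD, so no test could be made. Every interval below is a 95% interval for counting error only, and no replicate spread was measured.

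A cell was a barcode with 2500 or more UMIs (unique molecular identifiers, each marking 1 captured molecule), 1000 or more genes, and a mitochondrial share of UMIs no higher than 10%. That left 4978 control cells with 40902904 UMIs and 2731 sonKD cells with 32032551 UMIs. The median was 7737.5 UMIs per cell in control and 11612 in sonKD, and 2 cell barcodes occurred in both libraries. Mitochondrial genes took 3.82% of control and 4.19% of sonKD UMIs, and ribosomal protein genes took 19.1% and 22.5%. Barcodes over the mitochondrial limit made up 11.2% of control and 27.9% of sonKD barcodes of that depth. All 8 pluripotency markers were at 10 or more counts per 1000000 UMIs (CPM) in the mean of both libraries. Their summed level was 8164 CPM in control and 8922 CPM in sonKD. Dppa5a alone was higher, with 5027 CPM in control against 6075 CPM in sonKD, and the other 7 had log2 ratios of sonKD over control from -0.27 (Pou5f1) to -0.04 (Klf4). None of 7 fibroblast or feeder markers and none of 6 primitive endoderm markers reached 10 CPM, and Col3a1 and Lum were at 0 in both libraries. Of 5 neural markers only Tubb3 reached it, and the summed level of that list was 61.8 CPM in control against 57.6 CPM in sonKD. Son itself was at 169 CPM (165 to 173) in control and 106 CPM (102 to 109) in sonKD, which is 62.7% of the control level.

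Promoter sequence is shown for 3 centrosome genes whose levels were higher in cells rich in G2 and mitotic transcripts, a pattern described further on. They were picked after their values were seen, as the genes of that pattern whose upstream stretch holds a CCAAT match. The sequences are from RefSeq on GRCm38.p6, run 5′ to 3′ on the strand of the gene, and leave out annotated exon bases. Cep89 encodes a distal appendage protein of the mother centriole, and its stretch is chr7:35396837-35397034 on the plus strand. Cep85 encodes a protein that takes part in centriole duplication, and its stretch is chr4:134187113-134187335 on the minus strand. Cep135 encodes a structural protein of the centriole cartwheel and wall, and its stretch is chr5:76588449-76588697 on the plus strand. Capitals mark matches on either strand to CCAAT, the box bound by NF-Y, or to the cell cycle homology region (CHR), searched as TTTGAA or TTCGAA.

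Cep89: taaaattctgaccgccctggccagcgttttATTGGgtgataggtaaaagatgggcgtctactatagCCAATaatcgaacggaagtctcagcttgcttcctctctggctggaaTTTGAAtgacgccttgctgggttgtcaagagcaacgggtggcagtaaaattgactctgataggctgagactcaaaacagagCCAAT

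Cep85: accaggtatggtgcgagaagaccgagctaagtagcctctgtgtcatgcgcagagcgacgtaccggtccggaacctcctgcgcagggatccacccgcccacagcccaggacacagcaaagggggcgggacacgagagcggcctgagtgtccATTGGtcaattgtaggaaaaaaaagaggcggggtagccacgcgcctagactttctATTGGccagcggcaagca

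Cep135: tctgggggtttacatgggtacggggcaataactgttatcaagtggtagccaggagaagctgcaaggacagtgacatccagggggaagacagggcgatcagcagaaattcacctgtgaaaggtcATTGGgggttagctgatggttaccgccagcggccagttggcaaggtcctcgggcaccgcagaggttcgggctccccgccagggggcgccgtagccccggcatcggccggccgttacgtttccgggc

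The Cep89 stretch holds 1 CHR and 3 CCAAT matches, that of Cep85 holds 2 CCAAT matches and that of Cep135 holds 1. Over the 250 bases before the start site, a CHR match occurred in 8 of the 46 promoters listed for 38 of the centrosome genes (17.4%). The share was 17.1% of all 32851 listed promoters and 12.2% of promoters of genes at 10 CPM or more. CCAAT occurred in 16 of the 46 (34.8%) against 33.8% of all promoters and 36.1% of promoters of genes at 10 CPM or more. An E2F motif, searched as TTTCCCGC, TTTGGCGC, TTTCGCGC or TTTGCCGC on both strands, occurred in 3 of the 46 (6.52%) against 1.86% of all promoters and 3.71% of promoters of genes at 10 CPM or more. Of the 12 genes higher in both libraries in the G2/M ranking, 8 had a listed promoter. CHR occurred in 2 of these 8 (Cep89 and Sass6), CCAAT in 3, which are the 3 genes shown, and E2F in 0. Over the 46 promoters the shares of CHR and CCAAT were thus near those of all listed promoters. Against promoters of genes at 10 CPM or more, the CCAAT share was near and the CHR share was higher (17.4% against 12.2%). A match describes letters in the window, not a bound site.

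Centrosome transcripts as a group stood at nearly the same place as the rest of the transcriptome in the 2 libraries. Their summed level was 1707 CPM in control and at 1559 in sonKD, a log2 ratio of sonKD over control of -0.13 (-0.15 to -0.11). Of the 47 genes, 40 had a mean of at least 10 CPM. The median log2 ratio of these 40 was -0.13, and that of all 8063 genes at this level was -0.12. Ratios were below 0 for 33 of the 40 and above 0 for 7, against 6039 and 2024 of the 8063 genes. The quartiles of all genes were -0.22 and 0.00, and those of the centrosome genes were -0.26 and -0.05. None lay below the 5th percentile of all genes (-0.40) or above the 95th (0.25). A difference was counted where sonKD was at least 20% below control or at least 25% above it, which is the same distance on the log2 scale (0.32). Of the 40, 1 gene (Cep192) was at least 20% lower, against 10.2% of all genes. That call depended on the processing: no gene passed with totals rescaled by the trimmed mean of M-values (TMM; Cep192 at -0.27) or without mitochondrial and ribosomal protein genes (Cep192 at -0.29), and 4 passed from 5000 UMIs per cell or without the deepest barcodes. None was at least 25% higher, against 3.5% of all genes. The counting interval lay wholly below 0 for 23 of the 40 (51.5% of all genes) and wholly above 0 for 1, Cep164 (12.3% of all genes). With TMM scaling, the median of all genes moved to -0.03 and that of the centrosome genes to -0.04, and 24 of the 40 ratios were below 0. The share of all genes below 0 with that scaling is not given here. The 9 genes that then changed sign were Cenpj, Cep128, Cep44, Cep97, Cntrob, Ninl, Plk4, Sass6 and Tubgcp5.

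**Figure D1:**
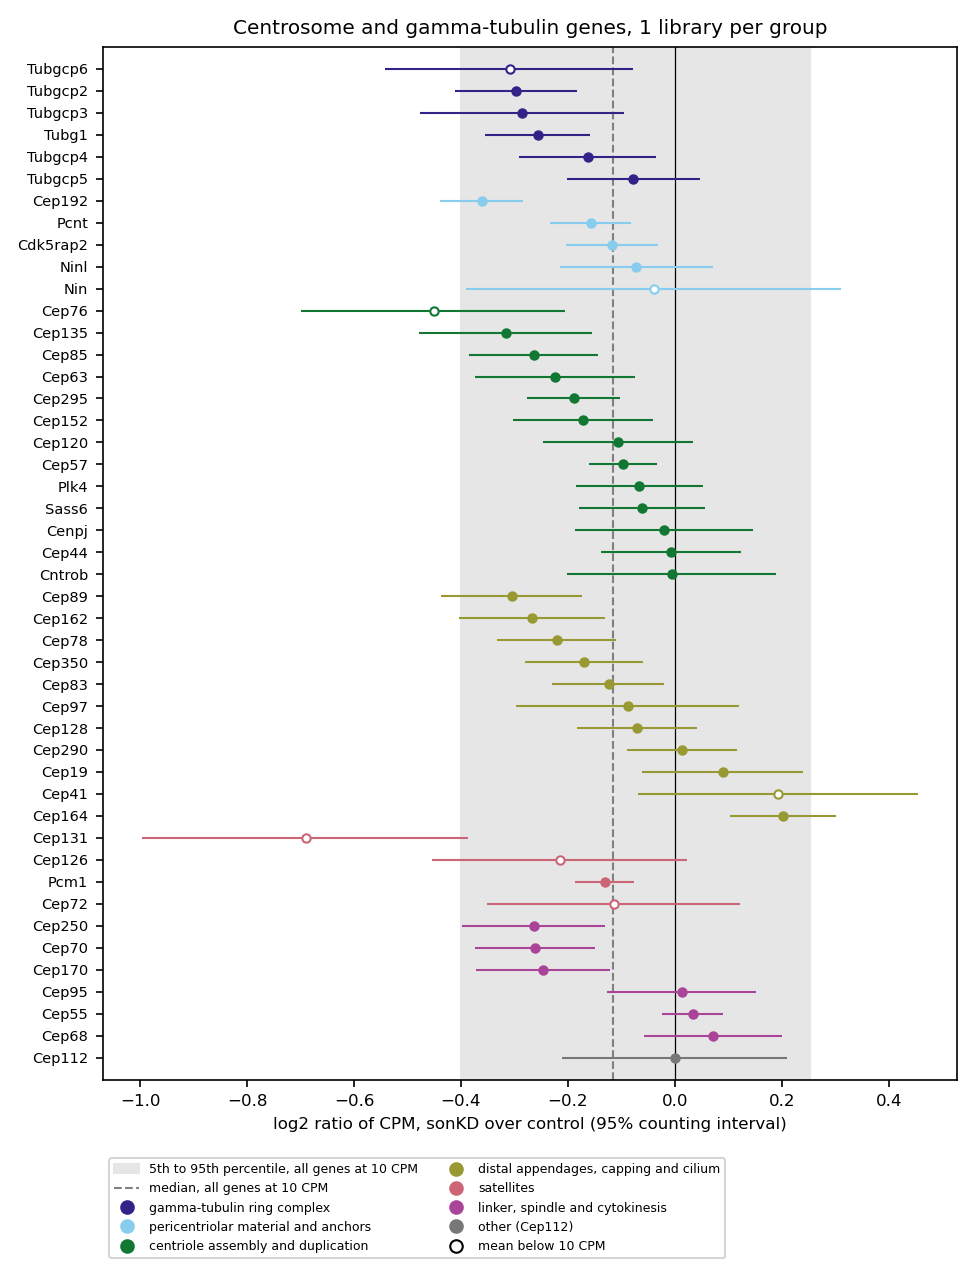
Log2 ratio of CPM, sonKD over control, for 46 of the 47 centrosome and gamma-tubulin genes, ordered by role. Points are ratios, bars are 95% counting intervals, open points have a mean below 10 CPM, the dashed line is the median of all 8063 genes at 10 CPM (-0.12) and the grey band runs from their 5th to their 95th percentile. All filled points lie inside the band, with Cep192 lowest at -0.36 and Cep164 highest at 0.20.

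The gamma-tubulin ring complex is built from gamma-tubulin and the GCP proteins of the Tubgcp genes. Tubg1 (chromosome 11, 101119938 to 101126419, plus strand, GRCm38), the gamma-tubulin gene of most cells, was at 51.7 CPM (49.6 to 54.0) in control and 43.3 CPM (41.1 to 45.6) in sonKD. Its log2 ratio was -0.26 (-0.36 to -0.16). Tubgcp2, which encodes a subunit of the small complex, was at 39.3 CPM in control and at 32.0 in sonKD, a ratio of -0.30 (-0.41 to -0.18). Tubgcp3, its partner in the small complex, was at 14.2 CPM and 11.7 CPM, a ratio of -0.29 (-0.48 to -0.10). These 3 genes had lower levels in sonKD by more than counting error, and each lay between the 12th and the 19th percentile of all genes.

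Of the GCPs of the larger ring, Tubgcp4 and Tubgcp5 were nearer to the transcriptome median and Tubgcp6 was not. Tubgcp4 was at 29.9 CPM in control and at 26.7 in sonKD, a ratio of -0.16 (-0.29 to -0.04). Tubgcp5 was at 30.2 CPM and 28.7 CPM, a ratio of -0.08 (-0.20 to 0.05) that was 0.01 with TMM scaling. Tubgcp6, which fell short of the 10 CPM mean, was at 9.78 CPM (8.84 to 10.8) and 7.90 CPM (6.95 to 8.93), a ratio of -0.31 (-0.54 to -0.08). The median over the 5 complex genes at 10 CPM was -0.26, the lowest of the role groups with more than 1 gene at that level. Of the last 500 annotated bases of Tubg1, 11.1% of 31-base words also occur in Tubg2. The Tubg2 count was 9 UMIs in control and 13 in sonKD. How the counting treated reads from shared words was not tested.

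The pericentriolar material genes encode the scaffold that recruits the ring complex. Cep192 (chromosome 18, 67800107 to 67885170, plus strand), whose product brings mitotic kinases and gamma-tubulin to the centrosome, was at 88 CPM (85.2 to 90.9) in control and 68.5 CPM (65.7 to 71.5) in sonKD. Its ratio of -0.36 (-0.44 to -0.28) was the lowest of the 40 and stood at the 7th percentile of all genes. Pcnt (chromosome 10, 76351263 to 76442786, minus strand), the pericentrin gene, was at 84.5 CPM (81.7 to 87.4) and 75.8 CPM (72.8 to 78.8), a ratio of -0.16 (-0.23 to -0.08). Cdk5rap2, which encodes an activator of the ring complex, was at 63.0 CPM and 58.1 CPM, a ratio of -0.12 (-0.20 to -0.03). Pcnt and Cdk5rap2 thus lay close to the median of all genes, while Cep192 lay below it by more than its counting interval. Ninl, a ninein-like anchoring protein, had a ratio of -0.07 (-0.22 to 0.07). Nin, the ninein gene, was scarce at 3.91 CPM in control and at 3.81 in sonKD.

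Genes of centriole assembly and duplication had 12 members at 10 CPM, all with ratios below 0 and with a median of -0.10. Of all 8063 genes, 6039 had ratios below 0. The core duplication factors Plk4, Sass6 and Cenpj lay between the median and the upper quartile of all genes, at percentiles 61.8, 62.9 and 71.5. Plk4 (chromosome 3, 40800019 to 40816883, plus strand), the kinase that starts duplication, was at 32.9 CPM (31.1 to 34.7) in control and 31.4 CPM (29.5 to 33.4) in sonKD, a ratio of -0.07 (-0.19 to 0.05). Sass6, which encodes the cartwheel protein, was at 33.4 CPM and 32.0 CPM, a ratio of -0.06 (-0.18 to 0.06). Cenpj, which encodes a protein that sets centriole length, was at 16.6 CPM and 16.4 CPM, a ratio of -0.02 (-0.19 to 0.15). For these 3 the intervals held 0, and the sign turned positive with TMM scaling. Cep44 and Cntrob both had a ratio of -0.01 and also turned positive.

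Other centriole genes spread more widely. Cep135 was at 19.9 CPM in control and at 16 in sonKD, a ratio of -0.32 (-0.48 to -0.15). Cep85 was at 34.5 CPM and 28.8 CPM, a ratio of -0.26 (-0.39 to -0.14). Cep63, which acts with Cep152 in recruiting Plk4, had a ratio of -0.22 (-0.37 to -0.08), and Cep152 had one of -0.17 (-0.30 to -0.04). Cep295 had a ratio of -0.19 (-0.28 to -0.10), Cep120 one of -0.11 (-0.25 to 0.03), and Cep57, the most abundant of the group at 118 CPM in control and at 111 in sonKD, one of -0.10 (-0.16 to -0.03). The centriole genes therefore ran from below the lower quartile of all genes (-0.22) to near 0. Cep135, Cep85 and, narrowly, Cep63 lay below that quartile, and Plk4, Sass6 and Cenpj lay toward the upper end.

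Genes of the distal appendages, the centriole cap and the cilium base had a median of -0.12 over 11 members at 10 CPM. They held both the lower and the higher ratios. Cep164 (chromosome 9, 45766946 to 45828691, minus strand), a distal appendage gene needed for cilium formation, was at 42.4 CPM (40.4 to 44.4) in control and 48.7 CPM (46.3 to 51.2) in sonKD. Its ratio of 0.20 (0.10 to 0.30) was the highest of the 40 and stood at the 93rd percentile of all genes. Cep89, another distal appendage gene, was at 29.4 CPM (27.8 to 31.1) and 23.8 CPM (22.2 to 25.6), a ratio of -0.31 (-0.44 to -0.17). Cep83, which lies upstream of both in appendage assembly, was at 43.4 CPM and 39.9 CPM, a ratio of -0.12 (-0.23 to -0.02). Genes of 1 structure thus had ratios of opposite sign, with intervals that did not overlap for Cep164 and Cep89.

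Among the remaining genes of that group, Cep162 had a ratio of -0.27 (-0.40 to -0.13), Cep78 one of -0.22 (-0.33 to -0.11) and Cep350 one of -0.17 (-0.28 to -0.06). Cep97, which encodes a capping protein that restrains cilia, had a ratio of -0.09 (-0.30 to 0.12), and Cep128 had one of -0.07 (-0.18 to 0.04). Cep290, a gene of the ciliary transition zone, had a ratio of 0.01 (-0.09 to 0.12), and Cep19 had one of 0.09 (-0.06 to 0.24).

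Pcm1, the scaffold gene of the centriolar satellites, was the most abundant of the 40 in control at 153 CPM (149 to 156). In sonKD it was at 139 CPM (135 to 143), level with Cep55, a ratio of -0.13 (-0.19 to -0.08). In the group of linker, spindle and cytokinesis genes, Cep250, which encodes the protein that links the centrioles, had a ratio of -0.26 (-0.40 to -0.13). Cep70 had a ratio of -0.26 (-0.37 to -0.15) and Cep170 one of -0.25 (-0.37 to -0.12). Cep68, another linker gene, had a ratio of 0.07 (-0.06 to 0.20), and Cep95 had one of 0.01 (-0.13 to 0.15). Cep55, which acts in the final cut between daughter cells, was at 137 CPM in control and at 140 in sonKD, a ratio of 0.03 (-0.02 to 0.09). Cep112 was at 10.5 CPM in both libraries. The linker genes Cep250 and Cep68 again had ratios of opposite sign, although the interval of Cep68 held 0.

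The 7 genes below 10 CPM (Cep126, Cep131, Cep41, Cep72, Cep76, Nin and Tubgcp6) had ratios from -0.69 to 0.19. The lowest was Cep131, a satellite gene, at 6.80 CPM (6.02 to 7.64) in control and 4.21 CPM (3.53 to 4.99) in sonKD, an interval of -1.0 to -0.39. The highest was Cep41 at 6.33 CPM and 7.24 CPM, with an interval of -0.07 to 0.46.

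Lists of neighbouring function were read in the same way. Of augmin and gamma-tubulin recruitment genes, 12 of 13 reached 10 CPM, 1 was at least 20% lower in sonKD and none at least 25% higher, and the median was -0.12. The farthest from 0 were Haus5 at -0.65 (-0.83 to -0.46) and Haus7 at -0.31 (-0.42 to -0.19), both augmin subunits. Of other centriole and satellite genes, 18 of 22 reached 10 CPM, 2 were lower by that much and none higher, and the median was -0.12. Those 2 were Cntrl, the centriolin gene, at -0.54 (-0.66 to -0.42) and Rttn, the rotatin gene, at -0.50 (-0.70 to -0.30). Of mitotic centrosome kinases and microtubule factors, all 15 reached 10 CPM, 2 were lower and none higher, and the median was -0.16. The farthest from 0 was Plk1, the kinase that drives centrosome maturation, at -0.42 (-0.49 to -0.34). Each list held 1 or 2 such genes, a share near the 10.2% of all genes.

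Within each library, 8 of the 12 centriole assembly genes at 10 CPM were at least 25% higher in cells rich in G2/M transcripts. The 8 were not all the same genes. Cenpj, Cep120, Cep135, Cep85, Cntrob and Sass6 passed in both libraries. Of the 4 pericentriolar material genes, 3 passed in control and all 4 in sonKD. Among all genes outside the list used for ranking, the share was 11.4% in control and 13.2% in sonKD. Cells were ranked by the share of their UMIs from 54 G2/M genes, none of them a centrosome gene described here, and cut into 3 groups of equal size (tertiles). The outer groups held 1659 cells each in control and 910 each in sonKD. The G2/M genes took 0.567% of UMIs in the lowest and 1.14% in the highest tertile of control, and 0.508% and 1.06% in sonKD. These groups are ranges along a score, and 23.0% of control and 22.2% of sonKD cells lay within 10% of the upper limit. Depth moved with the ranking, at a median of 6931 UMIs per cell in the lowest and 8541 in the highest tertile of control, and 10310.5 and 12476.5 in sonKD. Mitochondrial shares went the other way, at 4.14% and 3.69% in control and 4.55% and 4.08% in sonKD. The part of depth and mitochondrial share in the results was not tested beyond the alternatives given with the limits.

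In control, 16 of the 40 genes were at least 25% higher in the highest than in the lowest tertile, against 11.4% of the 8009 genes outside the list. In sonKD, 17 of the 40 were, against 13.2%. Of the 40, 12 passed that limit in both libraries (30%), against 6.43% of all genes. They were Cdk5rap2, Cenpj, Cep120, Cep135, Cep192, Cep70, Cep85, Cep89, Cntrob, Pcm1, Pcnt and Sass6. The median log2 ratio of highest over lowest tertile was 0.29 in control and 0.24 in sonKD for the centrosome genes, and 0.06 and 0.08 for all genes.

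**Figure D2:**
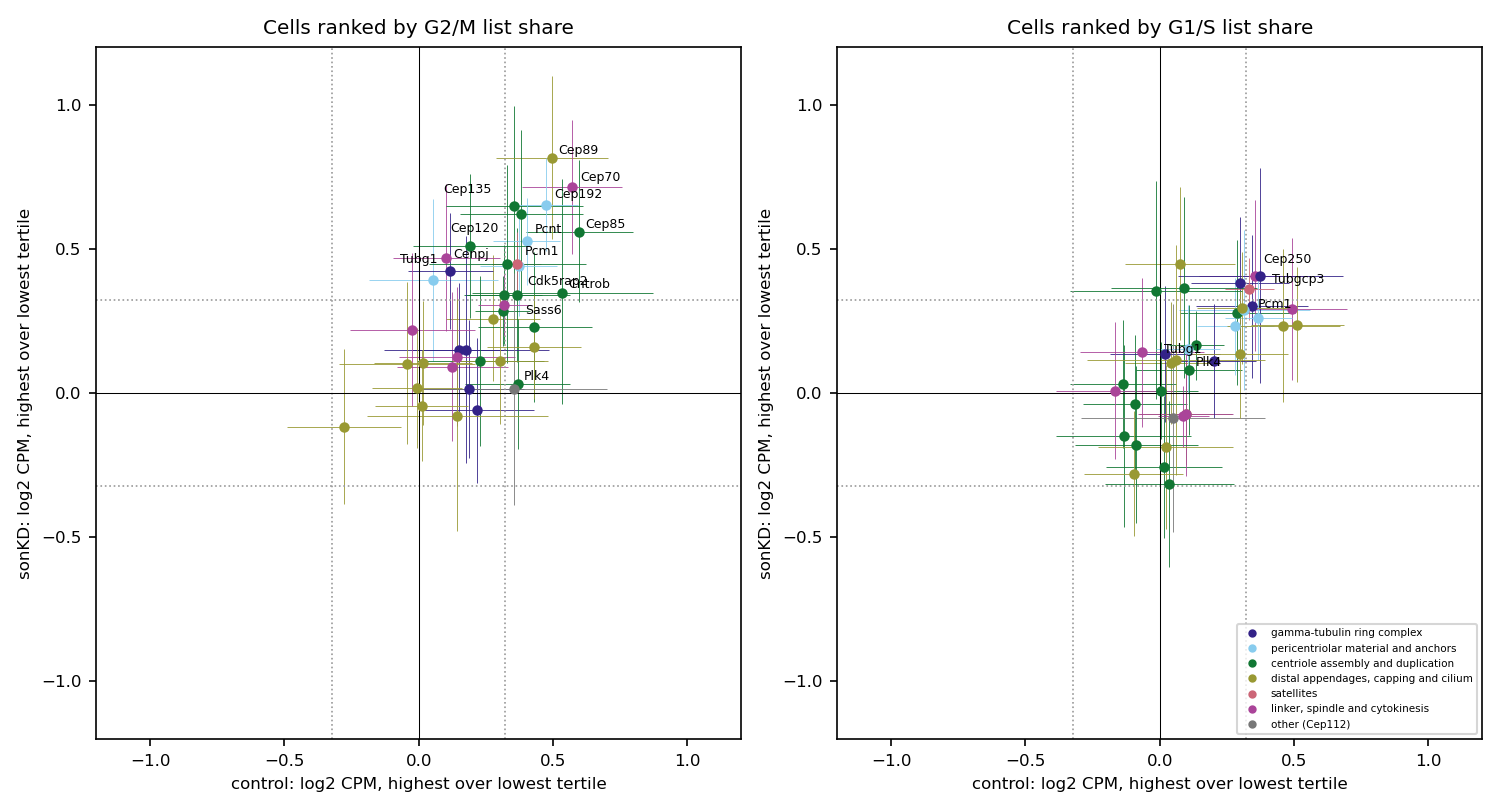
Log2 ratio of CPM in the highest over the lowest tertile of cells for 39 of the 40 centrosome genes at 10 CPM, control on the horizontal and sonKD on the vertical axis, with cells ranked by G2/M genes (left) or G1/S genes (right). Points are coloured by role, bars are 95% counting intervals and dotted lines mark 20% lower and 25% higher; on the left 12 genes lie past the line in both libraries and on the right 3 do.

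The role groups differed in this pattern. Centriole assembly genes had a median of 0.36 in control and 0.34 in sonKD. The intervals of Cep63 in both libraries, of Cep44 in control (-0.02 to 0.41), and of Plk4, Cep152 and Cntrob in sonKD held 0. The 4 pericentriolar material genes had medians of 0.39 and 0.48, and Ninl in control had a ratio of 0.05 (-0.18 to 0.29). The gamma-tubulin ring complex genes had medians of 0.18 and 0.15, and the appendage and cilium genes 0.02 and 0.10. The 40 ratios in control and sonKD, which come from separate cells, had a Spearman rho of 0.63 across genes, given as a description because genes are not independent replicates.

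Cep192 went from 73.7 CPM (68.9 to 78.8) in the lowest to 102 CPM (97.3 to 108) in the highest tertile of control, and from 51.7 CPM (47.1 to 56.6) to 81.3 CPM (76.2 to 86.6) in sonKD. Pcnt went from 72.1 CPM (67.3 to 77.1) to 95.2 CPM (90.4 to 100.2) in control and from 61.0 CPM (56.1 to 66.3) to 87.9 CPM (82.6 to 93.4) in sonKD. Both scaffold genes were higher in the cells rich in G2/M transcripts by more than counting error in each library. Cep89 went from 25.1 CPM to 35.4 CPM in control, a log2 ratio of 0.50 (0.29 to 0.71), and from 16.7 CPM to 29.3 CPM in sonKD, a ratio of 0.82 (0.54 to 1.10). Cep85 had ratios of 0.60 (0.40 to 0.80) and 0.56 (0.31 to 0.81), and Cep70 had ratios of 0.57 (0.39 to 0.75) and 0.71 (0.48 to 0.95). Cep135 had ratios of 0.36 (0.10 to 0.61) and 0.65 (0.31 to 0.99). Among the duplication genes, Sass6 had ratios of 0.37 (0.17 to 0.56) and 0.34 (0.11 to 0.57), and Cenpj had ratios of 0.33 (0.04 to 0.62) and 0.45 (0.11 to 0.79).

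Plk4 and Tubg1 had unlike ratios in the 2 libraries, although for each gene the intervals of the 2 libraries overlapped. Plk4 went from 29.5 CPM (26.5 to 32.7) in the lowest to 38.1 CPM (35.0 to 41.3) in the highest tertile of control, a ratio of 0.37 (0.17 to 0.56). In sonKD it was at 31.4 CPM (27.9 to 35.2) and 32.1 CPM (28.9 to 35.5), a ratio of 0.03 (-0.19 to 0.26). Tubg1 showed the reverse order, with 48.3 CPM (44.4 to 52.4) and 52.4 CPM (48.9 to 56.2) in control, a ratio of 0.12 (-0.04 to 0.28). In sonKD it was at 35.3 CPM (31.6 to 39.4) and 47.3 CPM (43.5 to 51.5), a ratio of 0.42 (0.22 to 0.62). Neither difference between libraries could be tested with 1 library per group. Other genes had gaps of like size between the libraries. Cep112 had ratios of 0.36 in control and 0.01 in sonKD. Cep170 went from 30.6 CPM to 32.8 CPM in control and from 21.9 CPM to 30.4 CPM in sonKD. In cells with at most 5% mitochondrial UMIs the Tubg1 ratios were 0.01 in control and 0.32 in sonKD, and those of Plk4 were 0.39 and 0.01.

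Cep55 had ratios of 0.32 (0.22 to 0.41) in control and 0.31 (0.20 to 0.41) in sonKD, just under the limit of 25%.

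**Figure D3:**
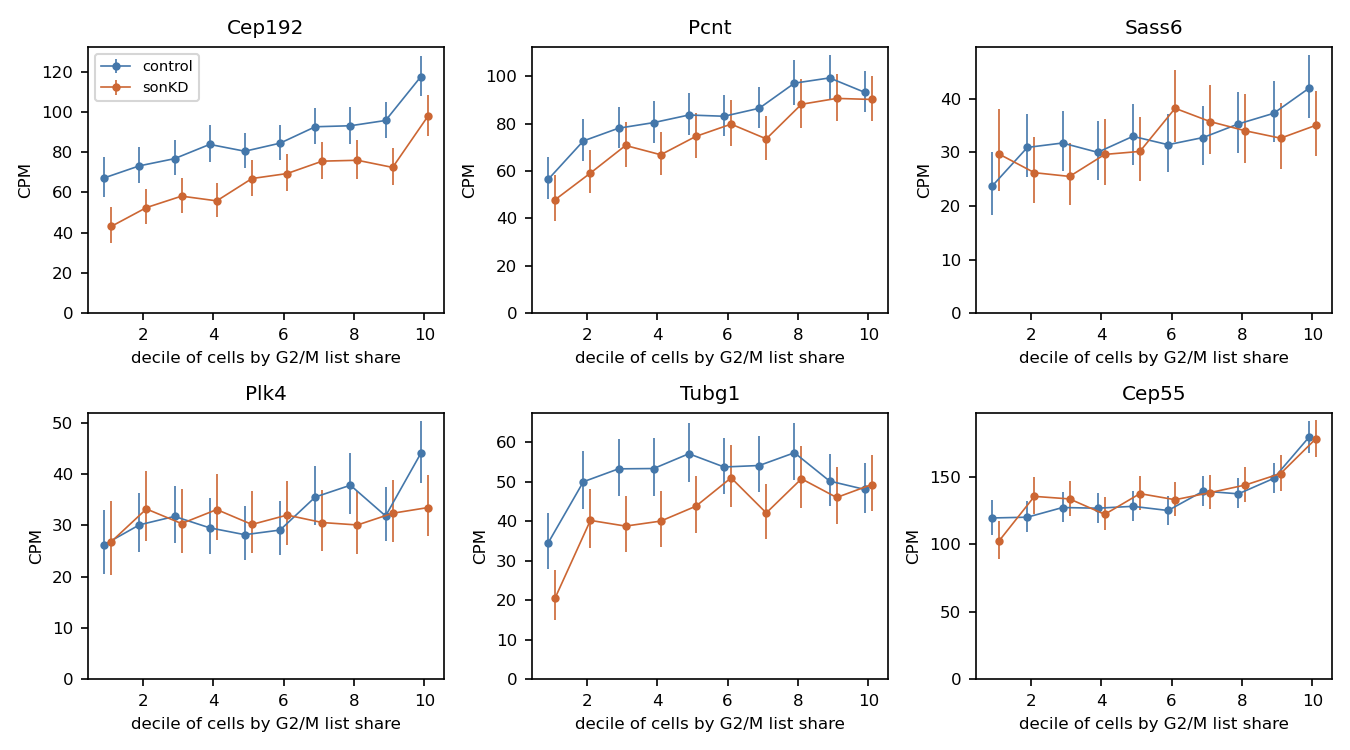
Level of 6 centrosome genes (CPM, with 95% Poisson intervals) in deciles of cells ordered by the share of their UMIs from G2/M genes, control in blue and sonKD in orange. Cep192 is lower in sonKD in all 10 deciles and Cep55 is highest in the last decile of each library. The first decile is the lowest for every gene shown in both libraries, except Sass6 in sonKD.

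Along 10 equal steps of the ranking, Cep192 ran from 67.2 CPM (57.9 to 77.6) in the first to 118 CPM (108 to 128) in the last decile of control, and from 43.1 CPM (34.7 to 53.0) to 97.8 CPM (88.1 to 108) in sonKD. Cep55 was at 119 CPM in the first and 179 CPM in the last decile of control, and at 102 CPM and 178 CPM in sonKD. Tubg1 was at 34.5 CPM (28.0 to 42.1) in the first decile of control and 50.0 CPM (43.0 to 57.9) in the second. In sonKD those deciles were at 20.6 CPM (14.9 to 27.7) and 40.2 CPM (33.2 to 48.3). That was the widest step of Tubg1 between neighbouring deciles in each library. A low first decile was not particular to Tubg1, as it was also the lowest for Cep192, Pcnt, Plk4 and Cep55 in both libraries. Pcnt was at 56.4 CPM in the first and 72.7 CPM in the second decile of control, and at 47.9 CPM and 59.1 CPM in sonKD.

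A ranking by 43 G1/S genes, added after the G2/M values were seen, gave another order. At least 25% higher in the highest tertile were 8 of the 40 in control (12.5% of all genes) and 7 in sonKD (14.8%). Only Cep250, Pcm1 and Tubgcp3 passed in both libraries, or 7.5% against 7.38% of all genes. Centriole genes had medians of 0.01 in control and 0.02 in sonKD, and ring complex genes medians of 0.30 in both. The share of centrosome genes past the limit in both libraries was therefore at the background for G1/S genes and above it for G2/M genes. The ring complex had a higher median in the G1/S ranking than in the G2/M ranking. It was not alone in its G1/S level. Pericentriolar material genes had G1/S medians of 0.30 in control and 0.25 in sonKD, and Pcm1 had ratios of 0.33 and 0.36.

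Ratios of sonKD over control were next taken within each tertile of the G2/M ranking, also added after the first values were seen. The tertiles were set in each library on its own, so they are not the same range of the score in both. The median over the 40 genes was -0.19 in the lowest, -0.08 in the middle and -0.15 in the highest tertile. Ratios were below 0 in every tertile for 23 of the 40 and above 0 in every tertile for 4, Cep164, Cep19, Cep55 and Cep68. These counts and medians were not computed over all genes, so they have no background. Without the split into tertiles, 6039 of the 8063 genes had ratios below 0. Cep192 was the only one of the 40 whose interval lay below 0 throughout. Its ratios were -0.51 (-0.68 to -0.35), -0.29 (-0.43 to -0.16) and -0.33 (-0.45 to -0.21) from lowest to highest. Cep164 had 0.38 (0.18 to 0.58), 0.18 (0.01 to 0.35) and 0.11 (-0.05 to 0.27). Tubg1 had -0.45 (-0.65 to -0.25), -0.24 (-0.41 to -0.08) and -0.15 (-0.31 to 0.01), and Plk4 had 0.09 (-0.14 to 0.32), 0.03 (-0.18 to 0.24) and -0.25 (-0.44 to -0.06). The Tubg1 ratio was thus farthest from 0 in cells poor in G2/M transcripts and the Plk4 ratio in cells rich in them, although for both genes the intervals of the outer tertiles overlapped. The outer tertile ratios restate the levels behind the highest over lowest ratios of these genes and are no separate evidence.

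Single cells held few centrosome molecules. With every cell thinned to 2500 UMIs, which left out no cell, the median cell had UMIs from 4 of the 47 genes in control and from 3 in sonKD. Before thinning the medians were 10 and 12. Pcm1 was detected in 29.8% (28.5 to 31.1) of thinned control cells and 28.8% (27.1 to 30.5) of sonKD cells, and Cep55 in 27.6% (26.4 to 28.9) and 28.9% (27.2 to 30.6). Cep192 was detected in 18.2% (17.2 to 19.3) of control and 14.8% (13.5 to 16.2) of sonKD cells, and Tubg1 in 11.9% (11 to 12.8) and 9.78% (8.69 to 10.9). Before thinning, Cep192 was detected in 46.4% and 50.3% of cells, and Tubg1 in 33.1% and 37.2%, an order that went with the greater depth of sonKD. Plk4 was detected in 7.53% (6.82 to 8.30) and 8.06% (7.06 to 9.14) of thinned cells. A Poisson distribution at the same mean gave 18.5% and 15.1% for Cep192 and 11.9% and 10.0% for Tubg1. The detected shares were close to these values. At so few molecules per cell, this comparison could not show whether levels differed between cells, and Cep192 did rise along the G2/M ranking. No subset of cells without a centrosome gene could be told from sampling. No other cell type was present in which to measure free RNA, which is why the droplets below are given.

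Centrosome transcripts were scarcer in free RNA than in cells. In droplets with 100 to 500 UMIs, of which control had 59886 and sonKD 62449, 39 of the 40 genes in control and all 40 in sonKD were at least 20% below their level in cells. The share of all genes was 70.8% and 73.4%. The median log2 ratio of droplets over cells was -1.70 in control and -1.79 in sonKD, against -0.92 and -1.03 for all genes. Tubg1 and Cep19, both short transcripts, were the nearest to their cell level. Cep44, with the shortest transcript of the 40 at 1690 bases, was farther from it, with a log2 ratio of -1.33 in control. Tubg1 was at 38.2 CPM (35.5 to 41.2) in control droplets and 31.4 CPM (28.9 to 34.1) in sonKD droplets, log2 ratios of -0.44 and -0.46. Cep19 had ratios of -0.20 and -0.34. Cep350, with the longest transcript of the 40 at 13307 bases, was at 5.77 CPM (4.73 to 6.98) and 3.59 CPM (2.78 to 4.56), ratios of -2.81 and -3.32. Across the 40 genes the droplet ratio had a Spearman rho of -0.61 with annotated transcript length in control and -0.60 in sonKD.

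**Figure D4:**
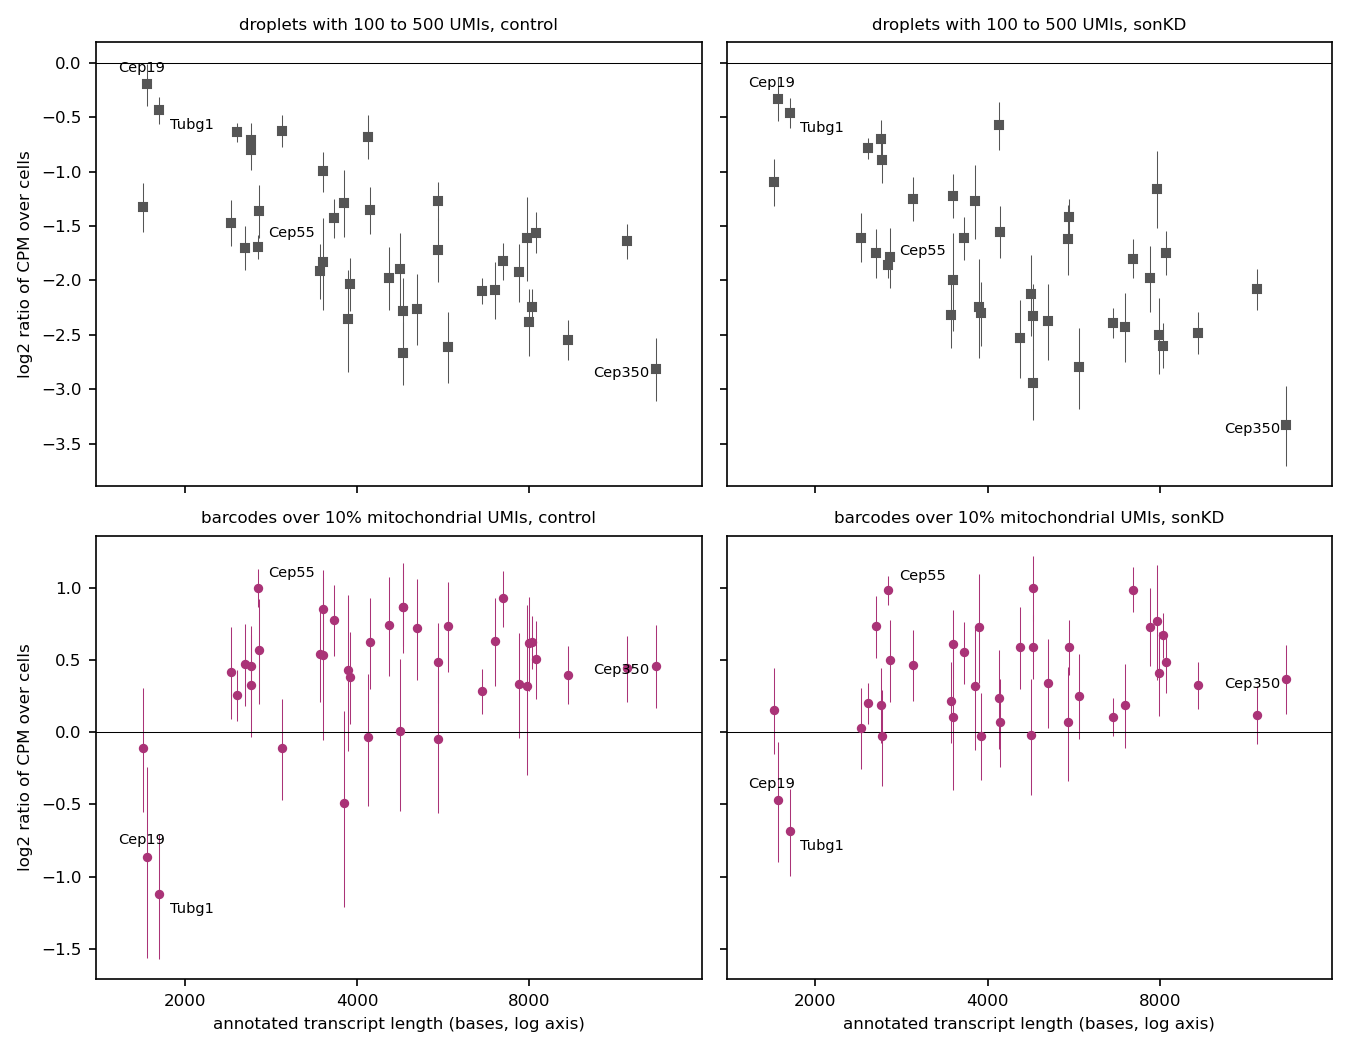
Log2 ratio of CPM over cells of the same library against annotated transcript length (log axis) for 39 of the 40 centrosome genes, in droplets with 100 to 500 UMIs (top) and in barcodes over 10% mitochondrial UMIs (bottom), control left and sonKD right. Bars are 95% counting intervals; droplet ratios run from -0.20 to -2.81 in control and fall with length, while most ratios in the bottom panels are above 0 and Tubg1 and Cep19 are below it.

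Barcodes of cell depth left out for over 10% mitochondrial UMIs numbered 625 in control and 1056 in sonKD. There, 28 of the 40 genes in control (39.8% of all genes) and 21 in sonKD (33.3%) were at least 25% above their level in cells. At least 20% lower were 3 in control (24% of all genes) and 2 in sonKD (22.1%). Medians were 0.46 and 0.34, against 0.15 and 0.11 for all genes. With mitochondrial UMIs taken out of the totals, 32 genes in each library were higher, against 50.3% and 51.1% of all genes. Cep55 was at 273 CPM (250 to 297) in control and 276 CPM (259 to 293) in sonKD, ratios of 1.00 (0.87 to 1.13) and 0.98 (0.88 to 1.08) over cells. Cep295, a gene of centriole-to-centrosome conversion, had ratios of 0.93 (0.73 to 1.12) and 0.99 (0.83 to 1.14). Tubg1 was at 23.8 CPM (17.5 to 31.6) and 26.9 CPM (21.8 to 32.8), ratios of -1.12 (-1.57 to -0.70) and -0.69 (-1.0 to -0.39). Tubg1 and Cep19 were thus the genes at least 20% lower in both libraries. With mitochondrial UMIs out of the totals Tubg1 remained so at -0.94 and -0.46, while Cep19 was at -0.68 in control and at -0.25 in sonKD, short of that limit. Cep55 was about 2 times its level in cells in both libraries.

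Centrosome genes are built from many exons. In the GENCODE M21 annotation of GRCm38, the 40 genes had a median of 20 exons and a transcript of 4380 bases, against 9 exons and 2942 bases over 8061 genes. Median introns were alike at 1537 and 1530 bases. Across all genes the sonKD over control ratio had a Spearman rho of -0.29 with exon number, and across the 40 centrosome genes one of -0.21. Tubg1 had 11 exons, Cep192 had 46, Pcnt had 42 and Cep164 had 30, so genes with many exons stood at both ends of the ratios. The 1493 genes with an exon number in the middle range of the centrosome genes (15.75 to 27.25) had a median ratio of -0.17, and 12.6% of them were at least 20% lower. The centrosome median of -0.13 was slightly nearer to 0 than that of genes with a like number of exons. Counts from the 3' end do not show splicing, so exon use in these genes was not measured.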

How the data were processed

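Groups came from the sample titles, 1 library each. Per the file headers, the deposited values are unnormalised counts of UMIs for each gene in each barcode from Cell Ranger 7.1.0. The submitters' processing notes name mm10. The annotation, the strand setting and whether intronic reads were counted are not given in the sources used here, so opposite-strand neighbours (such as Trmt13 for Sass6, Zfp511 for Tubgcp2 and Anapc13 for Cep63) could share counts. Counts were summed over cells and divided by the library total to give CPM. Log2 ratios carry no pseudocount, and counts under 3 were set to 3. Intervals are exact Poisson (levels), exact conditional binomial (ratios) and Clopper-Pearson (shares). Doublets were kept; 1 alternative leaves out the deepest barcodes, at 0.8% per 1000 cells. The functions were tested on simulated data.

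The centrosome genes, their role groups and all lists were chosen with earlier results of these data known. Named were all genes at 10 CPM, the core genes at any level, the extremes below 10 CPM, and the 2 genes of each related list farthest from 0. Under this rule 1 centrosome gene and 1 gene of a related list are not reported here by name or plotted, but stay in all counts and medians. The symbol Talpid3 found no match. Alternatives were TMM factors, totals without mitochondrial and ribosomal protein genes, the mean of CPM per cell, 5000 UMIs, 5% mitochondrial UMIs, a 50 CPM or no minimum, a pseudocount of 1, and other rankings. The G1/S ranking, the ratios within tertiles and the totals without mitochondrial UMIs were added after seeing the data. The code ran in Python 3.11.15 with numpy 2.4.6, scipy 1.17.1 and pandas 2.3.3, and TMM factors came from edgeR 4.0.16 in R 4.3.3.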

Additional observations from a re-analysis of the deposited data

How the results depend on the processing

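With 1 library per group, siRNA, culture, thawing and library cannot be told apart, and leaving out a replicate was not possible. No paired analysis was possible because each group has 1 sample. The median ratio of the centrosome genes ran from -0.14 to -0.04 over the alternatives, and its distance to the median of all genes from -0.04 to -0.01. The number of genes at least 20% lower in sonKD was 1, and it was 0 with TMM factors, 0 without mitochondrial and ribosomal protein genes, 2 with the mean of CPM per cell, 4 from 5000 UMIs, 2 with at most 5% mitochondrial UMIs, 4 without the deepest barcodes and 3 of 47 without a minimum level. Cep192 was at -0.27 with TMM factors and at -0.29 without mitochondrial and ribosomal protein genes. The number at least 25% higher stayed at 0, against 3.32% to 14.3% of all genes. In the G2/M ranking, the number of genes at least 25% higher ran from 11 to 19 in control and from 14 to 20 in sonKD. The shares of all genes under these alternatives are not given here, so these ranges have no background. Of 336 single ratios of sonKD over control recomputed, 12 moved by more than their counting interval, 8 of them with TMM factors. Cntrob, at 12 CPM, had an interval of -0.20 to 0.19, so log2 differences of that size were not detectable near 10 CPM at this depth.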
